A study of Homo sapiens with 8 samples.

Results

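The genes described here are 10 regulators of the cell division cycle: the D-type cyclins CCND1 and CCND3, the E-type cyclins CCNE1 and CCNE2, the A-type cyclin CCNA2, the cyclin-dependent kinases CDK2, CDK4 and CDK6, the kinase inhibitor CDKN1B, and CDK2AP1, a gene named for the binding of its protein to CDK2. They were chosen by name, through the Ensembl identifiers that the symbols map to, from 63241 genes listed for every library. All 10 reached 1 FPKM in 2 or more libraries, which was the filter on low values, and were among the 15173 genes tested. FPKM is the number of sequenced fragments of a gene scaled by transcript length and by the library's total of mapped fragments, so levels of different genes can be compared per length.

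Cyclins are the regulatory subunits of the cyclin-dependent kinases (CDKs), and each pair acts in its own window of the cycle. D-type cyclins with CDK4 or CDK6 start the phosphorylation of the retinoblastoma protein RB1 in G1, which frees E2F factors. E-type cyclins with CDK2 then carry the cell into S phase, and cyclin A2 with CDK2 and later CDK1 serves S phase and the approach to mitosis. Inhibitors such as CDKN1B (p27) and CDKN1A (p21), the latter a transcriptional target of p53, bind these complexes and hold the cell in G1.

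The study sequenced polyadenylated RNA of HepG2 and Huh7, established human liver cancer cell lines, and asked how cells resistant to sorafenib, a multikinase inhibitor used against liver cancer, differ from their parents. The WT libraries came from parental, drug-sensitive cells listed as control. The SR libraries came from sorafenib-resistant cells that had been obtained from the same line by raising the drug concentration stepwise, and they are listed as treated with sorafenib. WT and SR cells of each line gave 2 libraries apiece, 8 in all and in 4 groups, and every library carried the same batch label. Whether SR was a single clone or a pool is not given in the sources used here, and resistance and the drug itself cannot be told apart in these groups. Nothing states that replicates were separate cultures, so p-values measure only the spread between these libraries.

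Expression did not follow the labels in every library. Across all tested genes, 5 libraries (both of HepG2 WT, the first replicate of HepG2 SR and the second replicate of each Huh7 group) correlated with each other at a Pearson's r of 0.914 to 0.977 on the log2 scale and form the largest expression profile, although they carry labels of both cell lines. The other 3 were HepG2 SR replicate 2, which stood alone (r of 0.775 to 0.819 with the largest profile), and the first replicate of either Huh7 group, which correlated with each other at 0.965 and with the largest profile at 0.731 to 0.783. MAGEA4, a germline antigen gene, read 237 FPKM in Huh7 WT replicate 1 and 346 in Huh7 SR replicate 1, and was listed at 0 in the remaining libraries. KRT19, a biliary and progenitor keratin, was between 155 and 760 FPKM in the largest profile and between 0.179 and 2.37 in the other 3 libraries. EPCAM, of the same marker list, was likewise lower in those 3, and KRT7 was at 0 to 4.75 throughout. SOX9, also of that list, was 54.1 in HepG2 SR replicate 2, within its 15.6 to 78.4 in the largest profile. The hepatocyte genes were not uniform. FGB ran the other way from KRT19, at 0.386 to 4.51 in the largest profile and 128 to 380 in the other 3. APOA2 was lower in those 3 libraries, at 98.9 to 397 against 974 to 2451.5, and the ranges of the remaining hepatocyte genes overlapped. The hepatocyte genes summed to between 734 and 8065 FPKM, with ALB from 11.98 to 4713, and of 3 leukocyte genes PTPRC and CD3E were at or near 0 throughout while CD68, a lysosomal protein gene that is not restricted to leukocytes, read 3.94 to 29.1. These profiles were defined from the data, are not groups of the study, and are used below only to describe levels and to give results with and without the libraries that stand apart.

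CDK2AP1 was the member called in each comparison of SR with WT cells. It read 24.3 and 18.7 FPKM in HepG2 WT against 51.8 and 56.7 in HepG2 SR, and 17.2 and 25.8 in Huh7 WT against 40.3 and 53.6 in Huh7 SR. The group means were 21.5 ± 3.97 and 54.2 ± 3.46 in HepG2 and 21.5 ± 6.09 and 46.9 ± 9.43 in Huh7 (SD, n = 2). All 4 SR libraries therefore lay above all 4 WT libraries, and the lowest SR library stood well above the highest WT library. CDK2AP1 is encoded on the minus strand at chr12:123260971-123272334 (GRCh38).

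CCNA2 showed the same separation with a wider spread. Its level was 9.76 and 17.9 FPKM in HepG2 WT and 32.6 and 38.3 in HepG2 SR. In Huh7 it was 23.5 and 7.07 in WT and 37.6 and 24.6 in SR. All 4 SR libraries were above all 4 WT libraries here too, but Huh7 SR replicate 2 exceeded Huh7 WT replicate 1 by only a small margin. Group means were 13.8 ± 5.72 and 35.4 ± 4.02 in HepG2 and 15.3 ± 11.6 and 31.1 ± 9.22 in Huh7 (SD, n = 2). CCNA2 lies on the minus strand at chr4:121816444-121823933.

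**Figure D1:**
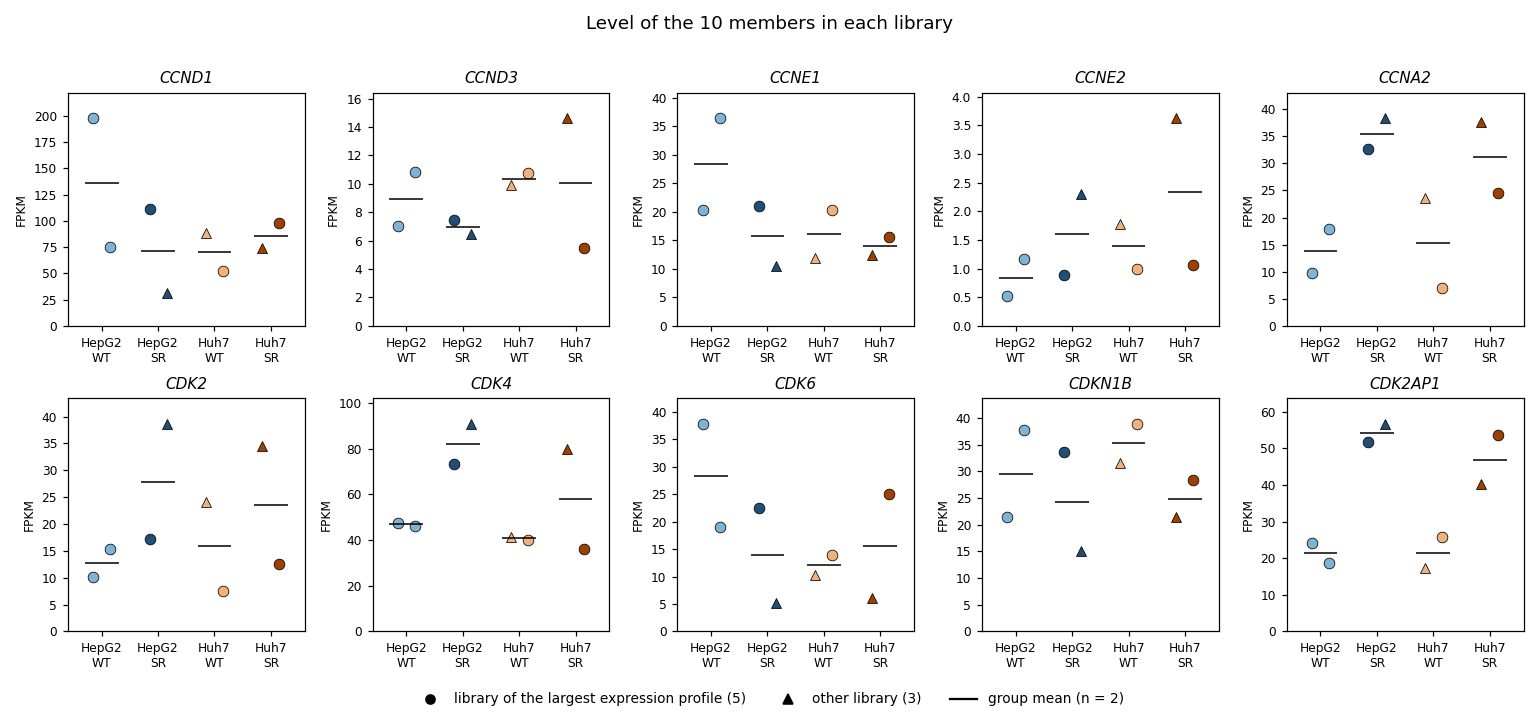
FPKM of each of the 10 members (vertical axes, each starting at 0) in the 4 groups, with a point for each library and a bar for the mean of 2 libraries; circles are the 5 libraries of the largest expression profile and triangles the other 3. Only in the panels of CCNA2 and CDK2AP1 do all 4 SR libraries sit above all 4 WT libraries, and in the panel of CDK2 the 3 triangles sit above every circle.

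The promoters of these 2 members are shown because they were the only members whose SR and WT libraries did not overlap. Both were taken from RefSeq (GRCh38.p14), are read 5′ to 3′ on the gene's own strand, overlap no annotated exon, and have motif matches in capitals. The CCNA2 window lies before the annotated gene. The CDK2AP1 window lies before a RefSeq start but inside the gene, in an intron of its longer GENCODE transcripts, which start further upstream.

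CCNA2, chr4:121823934-121824133, minus strand: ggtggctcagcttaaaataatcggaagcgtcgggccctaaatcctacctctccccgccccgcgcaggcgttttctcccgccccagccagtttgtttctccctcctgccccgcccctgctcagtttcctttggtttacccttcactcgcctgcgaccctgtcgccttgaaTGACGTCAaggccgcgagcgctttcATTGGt
CDK2AP1, most upstream of 3 starts listed in RefSeq, chr12:123271252-123271501, minus strand: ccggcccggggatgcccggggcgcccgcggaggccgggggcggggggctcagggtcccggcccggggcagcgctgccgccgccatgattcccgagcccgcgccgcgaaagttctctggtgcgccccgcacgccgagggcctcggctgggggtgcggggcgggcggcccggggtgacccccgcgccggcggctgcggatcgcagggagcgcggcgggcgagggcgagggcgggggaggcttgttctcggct

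The capitals in the CCNA2 promoter mark a cAMP response element (TGACGTCA) and a CCAAT box, which is written ATTGG because it lies on the opposite strand. The following motifs were searched as exact letters on both strands of the 250 bases before each start: CCAAT, TGACGTCA, the E2F spellings TTTCCCGC, TTTCGCGC, TTTGCCGC and TTTGGCGC, the CHR element TTTGAA, and the E-box CACGTG. Over 34943 RefSeq promoters of that length, CCAAT was held by 32.04%, TGACGTCA by 1.63%, an E2F spelling by 2.77%, TTTGAA by 13.35% and CACGTG by 6.32%. The CDK2AP1 window held none of these letters. Among the other members searched, CDK4 held CACGTG 3 times and CDKN1B held CCAAT 2 times. CCND3 held CCAAT once at 2 of its 3 listed starts, and CCNE1 and CDK6 held none. CCND1, CCNE2 and CDK2 were not searched. A match is a description of the letters and not a bound site.

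In the comparison of HepG2 SR with HepG2 WT, which asks what differs in resistant cells of the first line, 1 of the 10 members rose and none fell. A gene was called when the unadjusted p was under 0.05 and the log2 fold change was at least 0.5 in either direction, the thresholds of the study. By this rule 2.14% of all tested genes were called, and 0.877% were called higher. CDK2AP1 rose by a log2 fold change of 1.31 ± 0.35 (SE; interval from 0.47 to 2.14; limma on log2(FPKM + 1), adjusted p = 0.956). On this scale a pseudocount of 1 understates the change of low genes. CCNA2 had a log2 fold change of 1.35 with a 95% interval from -0.05 to 2.75, and CDK4 one of 0.79 with an interval from -0.21 to 1.78. No gene among the 15173 passed an adjusted p under 0.05 in limma here or in the other comparisons of this model, with 325 genes called at the unadjusted thresholds in this comparison.

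Replicate numbers were shared between WT and SR. Libraries with the same number deviated together from their group means in Huh7 (correlation of 0.796) and only weakly in HepG2 (0.125). With the replicate number as a block, CCNA2 and CDK2 (log2 fold change of 0.99) were also called higher in HepG2 SR. CCND1 (log2 fold change of -1.03) and CDK6 (-1.20) were called lower. That fit called 9.17% of all genes, so 5 of 10 members were called in it against 1 of 10 without the block. The adjusted p of these 5 members in limma was 0.527 or 0.534.

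In Huh7 SR against Huh7 WT, CDK2AP1 was again the only member called. It rose by a log2 fold change of 1.10 ± 0.35 (SE; interval from 0.27 to 1.94; limma, adjusted p = 0.99996), while 1.87% of all genes were called and 0.942% were called higher. CCNA2 had a log2 fold change of 1.16 with an interval from -0.24 to 2.56, and it was called with the replicate block, a fit that called 4.41% of all genes. The other 8 members lay between -0.49 for CDKN1B and 0.58 for CDK2. The CDK2AP1 call was lost without Huh7 WT replicate 1 (log2 fold change of 0.82), where CCNA2 was called (1.96), and without Huh7 SR replicate 2 (0.90), where CDK4 was called (0.95). In HepG2 it was lost without HepG2 WT replicate 2 (1.124).

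No member was called for a difference between the cell lines in its response. The interaction of line and SR status called 0 of 10 members against 0.606% of all genes, in the fit with the replicate block as well (3.53% of all genes). The CDK2AP1 difference, Huh7 minus HepG2, was -0.20 with an interval from -1.39 to 0.98, and that of CCNA2 was -0.19 with an interval from -2.17 to 1.79. These intervals are wide enough to hold a difference in response as large as the responses themselves. CCND1 had the largest estimate, 1.35 (interval from -1.04 to 3.73), and it became a call without HepG2 SR replicate 1 (2.25).

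Averaged over both cell lines, 2 of 10 members rose, CCNA2 and CDK2AP1, and none fell. The fit called 3.93% of all genes, with 1.90% of all genes higher and 2.03% lower. On values rescaled to a common sum per library, 29.7% of the calls were higher in SR, compared with 48.3% on FPKM. CDK2AP1 had a log2 fold change of 1.20 ± 0.25 (SE; interval from 0.61 to 1.80; limma, adjusted p = 0.998). CCNA2 had a log2 fold change of 1.26 ± 0.42 (interval from 0.27 to 2.24; limma, adjusted p = 0.998). The CCNA2 call was lost without HepG2 WT replicate 1 (1.05), HepG2 SR replicate 2 (1.20) or Huh7 SR replicate 1 (1.11).

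An exact two-sided permutation test of 4 SR against 4 WT libraries gave p = 0.0286 for both genes, the smallest value that its 70 splits allow, and an adjusted p of 0.776 over all genes. Of all tested genes, 1.52% had every SR library above every WT library. Both genes were also higher in SR in 4 of 4 pairs of libraries with the same line and number, as were CCNE2 and CDK2, while 9.16% of all genes were. With the replicate block, CDK2 joined the calls of the averaged comparison (0.79), and 9.95% of all genes were called.

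**Figure D2:**
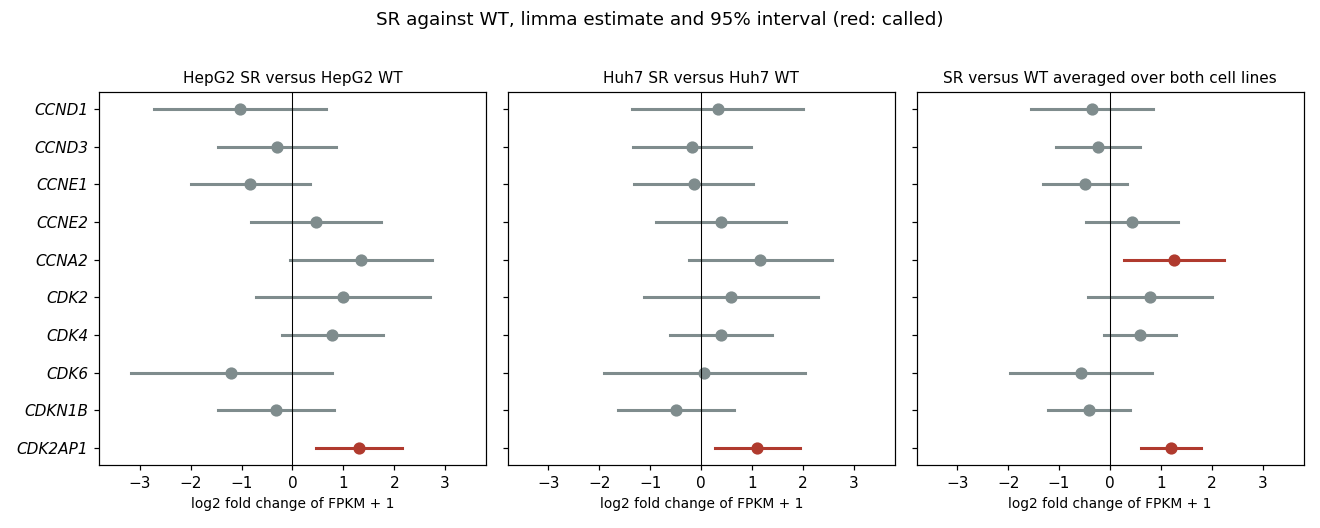
Log2 fold change of FPKM + 1 in SR against WT (horizontal axes) for the 10 members in HepG2, in Huh7 and averaged over both, as the limma estimate with its 95% interval; members called at an unadjusted p under 0.05 are red. CDK2AP1 is called in all 3 panels with estimates of 1.31, 1.10 and 1.20, and CCNA2 in the averaged panel only.

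The results for CCNA2 and CDK2AP1 were of similar size when the libraries that stand apart were set aside. Within the 5 libraries of the largest profile, CDK2AP1 was 24.3, 18.7 and 25.8 FPKM in the 3 WT libraries and 51.8 and 53.6 in the 2 SR libraries. CCNA2 was 9.76, 17.9 and 7.07 in the same WT libraries and 32.6 and 24.6 in the SR libraries. In a fit of these 5 libraries, CDK2AP1 had a log2 fold change of 1.18 and CCNA2 one of 1.31, and 5.06% of all genes were called. With the profile as a term, the values were 1.18 and 1.1205, with 8.21% of all genes called. That fit has no term for cell line, and HepG2 SR replicate 2, alone in its profile, adds nothing to its SR estimate. No other member was called in either fit.

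The D-type cyclins did not separate SR from WT. CCND1, which is the major D-type cyclin of liver cells, was the most abundant member in 6 of 8 libraries. It read 197 and 75.3 FPKM in HepG2 WT, 111 and 31.4 in HepG2 SR, 88.4 and 52.0 in Huh7 WT, and 73.7 and 97.9 in Huh7 SR. The HepG2 WT libraries differed from each other by more than any group means did, and SR and WT overlapped in both lines. The averaged log2 fold change was -0.35 with an interval from -1.55 to 0.84. The SR estimate was 0.18 within the largest profile and 0.05 with the profile as a term.

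CCND3 was far lower, at 5.45 to 14.6 FPKM, and both of those extremes were Huh7 SR libraries (replicate 2 and replicate 1). CCND2, the remaining D-type cyclin, was listed at 0 to 0.401 FPKM and did not pass the filter. CCND1 made up 82.6% to 96.5% of the summed FPKM of the D-type cyclins, with SR libraries from 83.0% to 94.6% and WT libraries across the whole range.

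The E-type cyclins differed widely in level. CCNE1 read 20.3 and 36.4 FPKM in HepG2 WT, 21.1 and 10.4 in HepG2 SR, 11.9 and 20.3 in Huh7 WT, and 12.5 and 15.6 in Huh7 SR. CCNE2 was the least abundant member in every library, at 0.518 to 3.62 FPKM. Their averaged log2 fold changes were -0.49 (interval from -1.32 to 0.34) for CCNE1 and 0.43 (interval from -0.48 to 1.33) for CCNE2, and neither was called. CCNE1 exceeded CCNE2 by 14.7-fold to 39.1-fold in the largest profile and by 3.45-fold to 6.71-fold in the other 3 libraries.

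Among the kinases, CDK4 came closest to the threshold. It was 47.5 and 46.4 FPKM in HepG2 WT and 73.4 and 90.8 in HepG2 SR, and 41.6 and 40.2 in Huh7 WT and 79.8 and 35.9 in Huh7 SR. In HepG2 both SR libraries were above both WT libraries, which held for 18.1% of all genes, whereas in Huh7 the SR libraries lay on either side of the WT libraries. The averaged log2 fold change was 0.58 (interval from -0.12 to 1.29), and without Huh7 SR replicate 2 it was 0.87 and called. Within the largest profile it was 0.20.

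CDK2, the partner of cyclins E and A, read 10.1 and 15.3 FPKM in HepG2 WT and 17.1 and 38.6 in HepG2 SR, and 24.2 and 7.53 in Huh7 WT and 34.5 and 12.5 in Huh7 SR. The 3 highest values belonged to the 3 libraries outside the largest profile. Its averaged log2 fold change was 0.79 (interval from -0.43 to 1.995), and within the largest profile it was 0.44.

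CDK6 ran the other way across libraries. It was 37.8 and 19.0 FPKM in HepG2 WT, 22.5 and 5.26 in HepG2 SR, 10.3 and 13.9 in Huh7 WT, and 6.07 and 25.0 in Huh7 SR. The 3 lowest values were those of the libraries outside the largest profile, and the averaged log2 fold change of -0.57 (interval from -1.96 to 0.83) became 0.13 within that profile. CDK4 exceeded CDK6 in all 8 libraries, by 1.26-fold to 3.27-fold in the largest profile and by 4.03-fold to 17.3-fold in the other 3 libraries.

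CDKN1B, which encodes the inhibitor p27, read 21.5 and 37.7 FPKM in HepG2 WT and 33.6 and 15.1 in HepG2 SR, and 31.6 and 38.9 in Huh7 WT and 21.4 and 28.4 in Huh7 SR. In Huh7 both SR libraries were below both WT libraries, as in 12.9% of all genes, and in HepG2 they overlapped. Its averaged log2 fold change was -0.41 (interval from -1.22 to 0.40). The protein is regulated largely through its turnover, which these RNA values do not measure.

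Across the 2 labelled cell lines, averaged over WT and SR, 0 of 10 members were called against 4.90% of all genes. The log2 fold changes of Huh7 against HepG2 ran from -0.47 for CDK6 to 0.34 for CCNE2. Since the second replicate of each Huh7 group shared the profile of most HepG2 libraries, this comparison does not set 2 uniform groups against each other. The CDK4 estimate of -0.40 became a call without Huh7 SR replicate 1 (-0.68).

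Read by expression profile instead, 4 of 10 members did not overlap between the 5 libraries of the largest profile and the other 3, against 29.2% of all tested genes. CCNE1 (15.6 to 36.4 FPKM against 10.4 to 12.5) and CDK6 (13.9 to 37.8 against 5.26 to 10.3) were higher in the largest profile. CCNE2 (0.518 to 1.17 against 1.78 to 3.62) and CDK2 (7.53 to 17.1 against 24.2 to 38.6) were lower there. CCNA2 and CDK2AP1 overlapped between the profiles. The profiles were built from these same values, so no test is given.

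**Figure D3:**
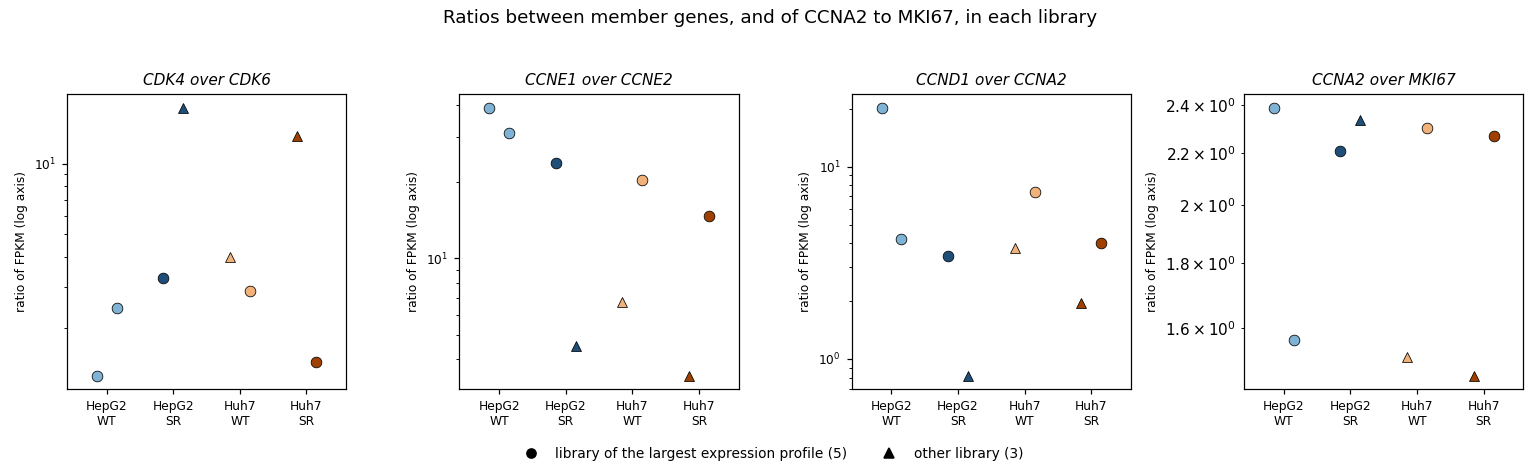
Ratios of FPKM on log axes for CDK4 over CDK6, CCNE1 over CCNE2, CCND1 over CCNA2, and CCNA2 over the proliferation marker MKI67 in each library, by group; circles are the 5 libraries of the largest profile and triangles the other 3. The ratio of CDK4 to CDK6 runs from 1.26 to 3.27 in the circles and from 4.03 to 17.3 in the triangles, while CCNA2 over MKI67 stays between 1.47 and 2.39 in all 8.

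The next ratios placed CCNA2 beside other cell cycle genes. CCND1 exceeded CCNA2 by 20.2-fold and 4.21-fold in HepG2 WT and by 7.36-fold in Huh7 WT replicate 2, while in HepG2 SR replicate 2 it was below CCNA2, at a ratio of 0.820. SR libraries ran from 0.820 to 3.98 and WT libraries from 3.76 to 20.2, so the groups overlapped only through Huh7 SR replicate 2 and Huh7 WT replicate 1. CCNA2 over MKI67, a gene transcribed in cycling cells, was 1.47 to 2.34 in SR and 1.52 to 2.39 in WT. This ratio spanned a narrower range than either level, which ran over 5.41-fold for CCNA2 and 8.34-fold for MKI67 across the 8 libraries. In bulk RNA more cycling cells and more RNA per cell cannot be told apart.

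The wider cell cycle list held 104 other genes in 7 roles, of which 99 were tested. In the averaged comparison, proliferation markers had the highest median log2 fold change, 1.01 against -0.05 over all genes, and all 12 estimates were positive. AURKA, a mitotic kinase that the study itself follows (2.32 ± 0.35 SE), MCM5, a subunit of the replicative helicase (1.55 ± 0.36), and MCM2, another subunit (1.28 ± 0.36), led the 5 that rose. With the replicate block 9 of the 12 rose, in a fit that called 4.55% of all genes higher. All 12 estimates were also positive with the expression profile as a term, where 7 were called, and within the largest profile, where 3 were called. AURKA was 10.2 and 14.1 FPKM in HepG2 WT against 92.8 and 50.5 in HepG2 SR, and 19.7 and 16.8 in Huh7 WT against 129 and 59.6 in Huh7 SR. The study picked AURKA from genes that differed between SR and WT cells of these same lines and in another dataset. Its calls here and within each line are therefore not independent of that choice.

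CDK activators and cyclin turnover genes had a median of 0.50, with 3 of 17 called higher and none lower. These were CDC20, an activator of the anaphase-promoting complex (1.27), the phosphatase CDC25C (1.117) and the CDK1 inhibitory kinase PKMYT1 (0.95). In the RB and E2F role, 1 of 18 rose, LIN9 of the DREAM complex (0.98). RB1 itself was 6.07 to 14.8 FPKM with a log2 fold change of -0.15. E2F1 had one of 0.98 and was called with the replicate block.

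Of 16 other cyclins, CCNB2, a mitotic cyclin, was the only one called (1.09), and the median was 0.02. CCNB1 had a log2 fold change of 1.16, with levels of 10.2 to 75.5 FPKM in WT and 57.7 to 85.1 in SR, and was called with the block. Of 17 other CDKs, CDK9, a kinase of transcription elongation and not of the cell cycle, was called lower (-0.55). CDK1, the mitotic kinase, was 6.86 to 47.6 FPKM in WT and 41.5 to 62.5 in SR, with a log2 fold change of 1.40, and was called with the block.

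Within each line, proliferation markers had the most calls of any role in the fit without the block. With the block, in HepG2 8 of 12 p53 targets were called lower and 4 of 12 proliferation markers higher, with 9.17% of all genes called. In Huh7 the block fit called 8 of 12 proliferation markers higher, with 4.41% of all genes called. In HepG2, 3 of 12 proliferation markers rose (AURKA, MCM5 and MCM2), against 0.877% of all genes called higher. In Huh7 6 of 12 did, against 0.942%, with AURKA, MCM5 and RRM2, a ribonucleotide reductase subunit, leading. CDK9 was lower in HepG2 SR (-0.76) and PKMYT1 higher in Huh7 SR (1.36). No gene of the list was called for the difference between the lines, and 5 of the 99 were with the replicate block, a share close to the 3.53% of all genes called in that fit.

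**Figure D4:**
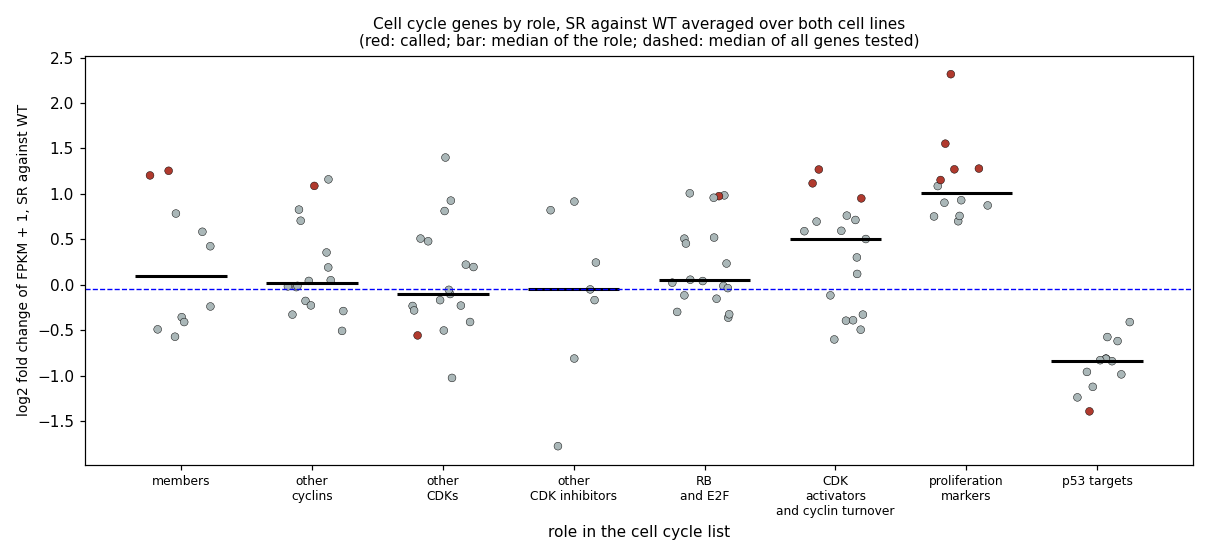
Log2 fold change of FPKM + 1 in SR against WT averaged over both cell lines (vertical axis) for every tested gene of the cell cycle list, by role; red points were called, black bars are the median of the role and the dashed line is the median of all genes tested. Proliferation markers lie around a median of 1.01 and p53 targets around -0.83, and the members around 0.09.

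Among the other CDK inhibitors, CDKN1A and CDKN2A varied more by library than any member did. CDKN1A (p21) read 452 and 175 FPKM in HepG2 WT and 138 and 11.4 in HepG2 SR, and 3.91 and 163 in Huh7 WT and 1.96 and 92.2 in Huh7 SR. It was between 92.2 and 452 in the largest profile and between 1.96 and 11.4 in the other 3 libraries. CDKN2A, the INK4 inhibitor locus that acts on CDK4 and CDK6, was 1.95 to 5.35 FPKM in the largest profile and 20.5 to 32.2 in the other 3 libraries. CDKN1C was listed at 0 to 0.671 FPKM and did not pass the filter.

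The averaged log2 fold change of CDKN1A was -1.77 ± 1.55 (SE), and CDKN1A was lower in SR in 4 of 4 same-numbered pairs, as were 12.4% of all genes. With the replicate block it was called lower, as were 5.4% of all genes. The block fit also called its difference between the lines (1.995, Huh7 minus HepG2), as it did for 3.53% of all genes. Without the block that difference was not called. CDKN2A had a log2 fold change of 0.25 ± 0.98 (SE). Of the 7 other inhibitors tested, none was called with neither block nor profile in the fit, and with the block 1 was called higher and 2 lower, CDKN1A included. With the profile as a term 4 were called, CDKN2C (0.81) and CDKN3 (0.93) higher and CDKN1A (-0.96) and CDKN2B (-1.19) lower. Within the largest profile 3 were called, CDKN3 (1.15) higher and CDKN2A (-0.94) and CDKN2B (-1.39) lower, and CDKN1A was at -1.05 (interval from -2.35 to 0.24). Those fits called 8.21% and 5.06% of all genes.

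Of 12 p53 target genes, the median log2 fold change was -0.83 and every estimate was negative, with 1 called, BTG2, an antiproliferative gene (-1.39). In HepG2, 2 were called lower (BTG2 and TP53I3), against 1.27% of all genes, and in Huh7 none. The lines differed in size: the median was -1.38 in HepG2, with no positive estimate, and -0.23 in Huh7, with 2 of 12 positive. The difference, Huh7 minus HepG2, had a median of 1.11, with no p53 target called for it without the block. With the profile as a term the median SR estimate was -0.26, 1 of 12 estimates was positive and BTG2 was called (-1.20). Within the largest profile the median was -0.44, again with 1 positive, and BBC3, an apoptosis gene, was called (-0.52) in place of BTG2 (-1.26). With the replicate block 7 of 12 were called lower in the averaged comparison, against 5.40% of all genes. By profile, 11 of 12 had all 5 libraries of the largest profile above the other 3, against 16.0% of all genes, for example MDM2, the p53 ubiquitin ligase, at 43.7 to 116 FPKM against 11.99 to 19.7. BTG2 (-1.66), TP53I3 (-1.56) and the S-phase gene PCNA (-1.11) were called lower in Huh7 than in HepG2.

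**Figure D5:**
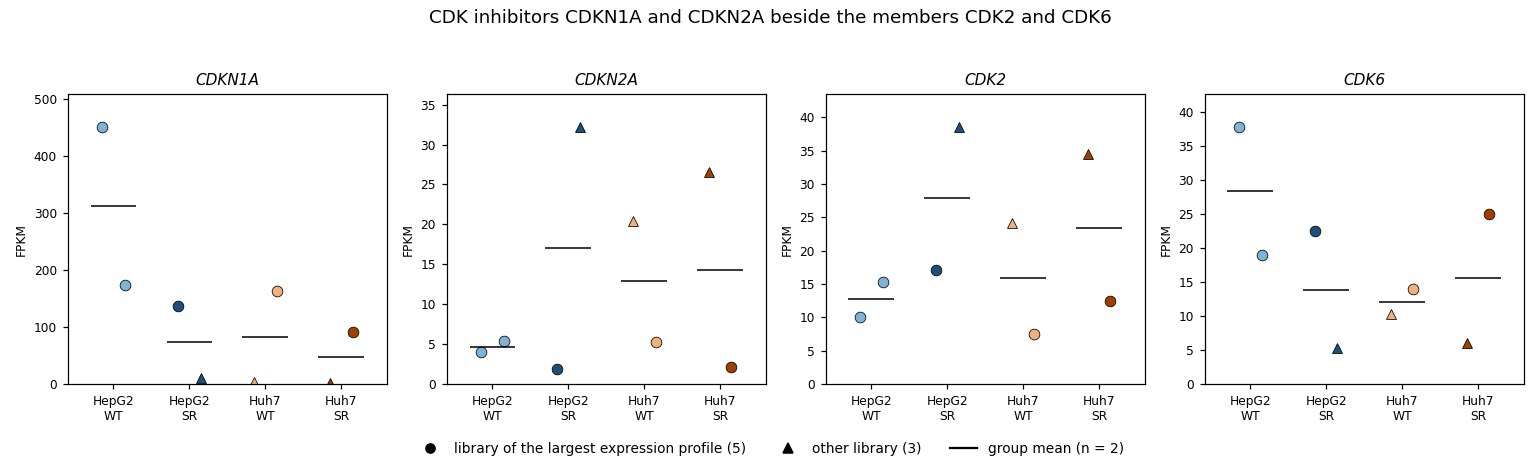
FPKM (vertical axes from 0) of the inhibitor genes CDKN1A and CDKN2A beside the members CDK2 and CDK6 in the 4 groups, a point for each library and a bar for the mean of 2 libraries; circles are the 5 libraries of the largest profile and triangles the other 3. CDKN1A and CDK6 are high in the circles and low in the triangles (CDKN1A 92.2 to 452 against 1.96 to 11.4), and CDKN2A and CDK2 are the reverse.

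Several members overlap a gene on the opposite strand, and nothing states that fragments were counted by strand, so reads in the shared part cannot be told apart. CCNA2 overlaps EXOSC9, an exosome subunit, which read 7.71 and 12.8 FPKM in HepG2 WT and 20.0 and 24.8 in HepG2 SR, and 18.7 and 16.6 in Huh7 WT and 26.2 and 15.7 in Huh7 SR. EXOSC9 was thus higher in SR in HepG2 and on both sides of WT in Huh7. CDK2 overlaps PMEL, at 0.371 to 1.98 FPKM, CDK4 overlaps TSPAN31, at 4.61 to 8.50, and CCND1 overlaps LTO1, at 8.62 to 24.9. CCNE2 overlaps INTS8, which at 5.27 to 26.5 FPKM was well above CCNE2 in every library. CDK2AP1 overlaps 2 genes of the annotated type antisense, AC068768.1 listed on its own strand and AC068768.2 on the opposite strand, for which no value is given here.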

How the data were processed

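Polyadenylated mRNA of 8 libraries was sequenced, and the authors deposited FPKM for single libraries, with no replicates pooled; the submitters' processing notes name fastp 0.20.0 and GRCh38, and the aligner, counter and annotation are not given in the sources used here. FPKM carry scaling for depth and length but no read totals, so depth is unknown and no counting interval is given. Symbols were paired with 99.1% of identifiers, and positions and overlaps came from GENCODE release 29.

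After log2(FPKM + 1), limma 3.58.1 in R 4.3.3 (lmFit, eBayes with trend) fitted a mean for each of 4 groups with 4 residual degrees of freedom, over 15173 genes, and Benjamini-Hochberg adjusted over all of them. Calls used the unadjusted p, and intervals hold 95%. The study's edgeR test needs counts and was not repeated. Labels gave groups and replicate numbers. Same-numbered libraries of a line deviated from their group means with a correlation of 0.125 in HepG2 and 0.796 in Huh7, so the replicate number was also fitted as a block, with 2 residual degrees of freedom. The fit was also run on simulated data with independent noise and changes set in HepG2 SR only. Of log2 changes of 1, it called 46.3% at the unadjusted thresholds and 0% at an adjusted p under 0.05. That simulation held no expression profiles or shared replicate numbers, so it does not cover those features of the data.

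The members, the wider list and the tests were chosen with earlier results of these data known. Of the wider list, up to 3 called genes per role with the largest change were named in each comparison, and CCND2, CDK1, CDKN1A, CDKN1C, CDKN2A, RB1, E2F1 and CCNB1 in any case. Genes named for overlap with a member, the p53 target MDM2, and the inhibitors and BBC3 called in fits by profile were chosen after their values were seen. Alternatives were a pseudocount of 0.1, a filter of 0.1 or none, rescaling to a common sum (TPM), quantile normalization, each line alone, eBayes without trend, the adjusted p, a log2 fold change of 1, and each library left out. Figures were drawn with matplotlib 3.10.9, and tables with pandas 2.3.3.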

Additional observations from a re-analysis of the deposited data

Results flagged for a closer look

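In groups of 4 libraries, a value was marked when its gap to the nearest other value, divided by the range, was above Dixon's 95% critical value. None of the 10 members met this in the 4 SR or the 4 WT libraries. Of the other genes named, CDKN2A was marked in WT at 20.5 FPKM in Huh7 WT replicate 1, RB1 in SR at 6.07 FPKM in Huh7 SR replicate 1, and CDK9 in SR at 14.9 FPKM in HepG2 SR replicate 2. All 3 libraries lie outside the largest expression profile. The 3 marks came from 60 such groups of 30 genes, and chance marks about 5% of groups.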

How the results depend on the processing

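CDK2AP1 kept its direction and its call in every alternative of the averaged comparison apart from the adjusted p, at which no member was called in any comparison (0 members). With each line fitted alone, 3 members were called in HepG2 (CCNA2, CDK4 and CDK2AP1), in a fit that called 480 of 15173 genes, against 325 in the main model. The Huh7 fit alone called 124 of 15173 genes, against 283. With the replicate block, 5 members were called in HepG2 and 2 in Huh7, and the block changed no call of a member other than those given above. The block rests on numbers that pair libraries weakly in HepG2.

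Leaving out 1 library at a time changed which members were called. These fits leave 1 library in a group, and the share of all genes called shifted between them too, so no count of members is given. In HepG2 the estimates ran from -1.93 to -0.13 for CCND1 and from -2.15 to -0.25 for CDK6, lowest without HepG2 SR replicate 1. Those of CDK2AP1 in HepG2 ran from 1.12 to 1.49, and the averaged estimate of CDK4 from 0.30 to 0.87. In HepG2, CCNA2 was called without either Huh7 WT library and CDK4 without Huh7 SR replicate 2, with the estimates as before and a smaller spread. A single library left in a group was assumed to vary like the others.

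Single estimates were followed under alternatives for selected members in each comparison, so other members may also have changed sign. Among those followed, CDK2 in Huh7 changed sign (-0.20 to 1.36 over libraries left out). The line differences of CCNA2 (-0.99 to 0.61) and CDK2AP1 (-0.48 to 0.077) did so too. So did CDK6 in Huh7 against HepG2 (-0.95 to 0.008) and the averaged CCND1 (-0.80 to 0.095), and none of these was called. The SR estimate of CCND1 was 0.052 with the profile as a term and 0.183 in the largest profile, and that of CDK6 was 0.128 in the largest profile. The cause was not tested. Of 450 such selected member estimates under alternatives, 411 kept direction and side of the threshold. CCND3 was not among them, nor were most members in Huh7, in the line difference and in Huh7 against HepG2. Rescaling to a common sum moved 3 of 80 member levels, all of CDK4 in WT, by more than the spread of the 2 replicates. It changed the higher share of calls from 40.9% to 25.1% in HepG2 and from 50.5% to 33.0% in Huh7. Depth is unknown, and with 2 libraries per group only large changes could pass.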
